A study of Mus musculus with 10 samples.

Results

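The genes described here are 35 interferon-stimulated genes of the mouse liver, read in 10 bulk RNA libraries. They were taken from a fixed list of symbols, all 35 of which matched a row among the 27179 genes of the count table, and all 35 passed the filter on low counts that left 15226 genes for testing. Of the list, 28 are targets of type I interferon and 6 are GTPases best known as targets of interferon gamma, while Irf1, which answers to both, was kept apart. The classes are not strict, and promoter matches to the elements of both interferon types, described below, were found in each. All mice were male C57BL/6 animals homozygous for floxed Lpcat3, a gene of membrane phospholipid remodelling, and all had been fed a NASH (nonalcoholic steatohepatitis) diet over 12 weeks. The 5 control mice are labelled with the floxed gene alone. The 5 LKO mice also carried Cre recombinase under the albumin promoter, which is active in hepatocytes, so other liver cells keep Lpcat3. Each library came from the frozen liver of 1 mouse. The labels used here give neither the age of the mice nor the make-up of the diet.

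Type I interferons bind the receptor made of IFNAR1 and IFNAR2 and, through the kinases JAK1 and TYK2, activate the transcription factor ISGF3, which contains STAT2 and IRF9. ISGF3 binds the interferon-stimulated response element (ISRE) in the promoters of antiviral genes. Interferon gamma, made mainly by T and NK cells, binds another receptor and acts on the gamma-activated site (GAS), and it is known for inducing guanylate-binding proteins (GBPs) and immunity-related GTPases (IRGs). In the liver, hepatocytes, Kupffer cells, endothelial cells and recruited leukocytes can all respond to interferons.

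Some promoters of both classes carry these elements, and a few of those that do are printed. RefSeq promoter windows of build GRCm38.p6, from 250 bases before to 50 after a start site, were found for 26 of the 35 members. A core ISRE, searched on both strands as GAAA, any 2 bases and GAAA, was present in 15 of the 26, against 3.99% of all genes in the promoter table. It was found in 10 of 19 type I targets and in 5 of 6 interferon gamma GTPases. A GAS was searched as TTCNNNGAA, which is its own reverse complement. It was present in 7 of the 26 members, against 9.55% of all genes. These were 4 of 19 type I targets, 2 of 6 interferon gamma GTPases and Irf1. The stretch of Igtp below also holds a GAS, which is left in small letters. The stretches below run 5′ to 3′ on the strand of the gene, with each core in capitals and 20 bases on either side, ending at the start site where that comes first. A core on the opposite strand reads TTTC, 2 bases and TTTC.
Ifit1 (chr19:34640765-34640833, plus strand): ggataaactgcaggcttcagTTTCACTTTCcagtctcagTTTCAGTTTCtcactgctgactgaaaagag
Ifit3 (chr19:34583353-34583436, plus strand): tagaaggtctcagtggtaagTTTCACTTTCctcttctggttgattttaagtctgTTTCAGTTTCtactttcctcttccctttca
Ifit3b (chr19:34607749-34607832, plus strand): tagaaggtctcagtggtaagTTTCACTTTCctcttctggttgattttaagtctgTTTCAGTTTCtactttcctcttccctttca
Isg15 (chr4:156200855-156200916, minus strand): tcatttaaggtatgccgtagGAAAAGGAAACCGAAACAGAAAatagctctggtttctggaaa
Oas1a (chr5:120907526-120907565, minus strand): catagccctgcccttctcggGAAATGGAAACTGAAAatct
Gbp2 (chr3:142620584-142620633, plus strand): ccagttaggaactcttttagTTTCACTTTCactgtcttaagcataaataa
Irgm1 (chr11:48871421-48871470, minus strand): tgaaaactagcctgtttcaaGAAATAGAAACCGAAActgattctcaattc
Igtp (chr11:58199502-58199551, plus strand): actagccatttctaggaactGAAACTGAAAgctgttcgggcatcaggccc
Irf1, with a GAS in capitals (chr11:53769904-53769952, plus strand): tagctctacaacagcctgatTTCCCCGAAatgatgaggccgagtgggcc

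In Isg15, 3 overlapping cores ran together, and 2 overlapping cores lay close to the start site in both Oas1a and Irgm1. The printed stretches of Ifit3 and Ifit3b had the same letters. In a local alignment of both promoter windows, which leaves out unmatched ends, 259 of 274 aligned positions were identical. These neighbours are near-identical copies, so reads may have been split between them, and their values are not independent. The median log2 fold change was 0.61 (range 0.036 to 1.17) over the 15 members with a core in the window and 0.44 (range 0.016 to 1.12) over the 11 without one, so the ranges overlapped, and the difference was not tested. A match describes letters only, and no binding was measured.

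As a check of the labels, Lpcat3 ranged from 94.1 to 123.9 CPM (counts scaled to a common library size) over the controls and from 25.5 to 38.5 CPM over LKO. Libraries held 26914124 to 46727182 counts. Control 4 lay at 30.2 on the first principal component, apart from the other controls (-52.7 to -30.1) and inside the range of the LKO libraries, where LKO 3 stood at 82.3. Over all genes, 10 of 15226 passed an adjusted p under 0.05 (edgeR quasi-likelihood test, Benjamini-Hochberg), or 0.0657%, and 2296 passed without control 4. In bulk RNA, more cells of a type and more RNA per cell cannot be told apart.

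Interferon-stimulated genes had higher mean levels in LKO, but no member passed the test, and most of the difference sat in LKO 3. All 35 members had a log2 fold change above 0, from 0.02 (Ifi35) to 1.18 (Mx1), with a median of 0.48. Over all genes tested the median was -0.00, and 49.5% were above 0. None of the 35 passed at an adjusted p under 0.05, against 0.0657% of all genes, and the lowest adjusted p was 0.139 (Oas1a). At an unadjusted p under 0.05, 11 members were higher and 0 were lower, while 12.8% of all genes were higher and 9.5% lower. The groups overlapped for all 35, while 1.72% of all genes were higher in LKO with no overlap and 2.23% lower. LKO 3 was the highest of the 10 libraries for 31 members, as it was for 24.1% of all genes. It stood above all 5 controls for 32 members (29.8% of all genes), and LKO 4 did for 24 (18.2%). LKO 1 stood above all controls for 1 member, LKO 2 for 5 and LKO 5 for 2, where the shares over all genes were 12.5%, 15.2% and 21.2%.

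**Figure D1:**
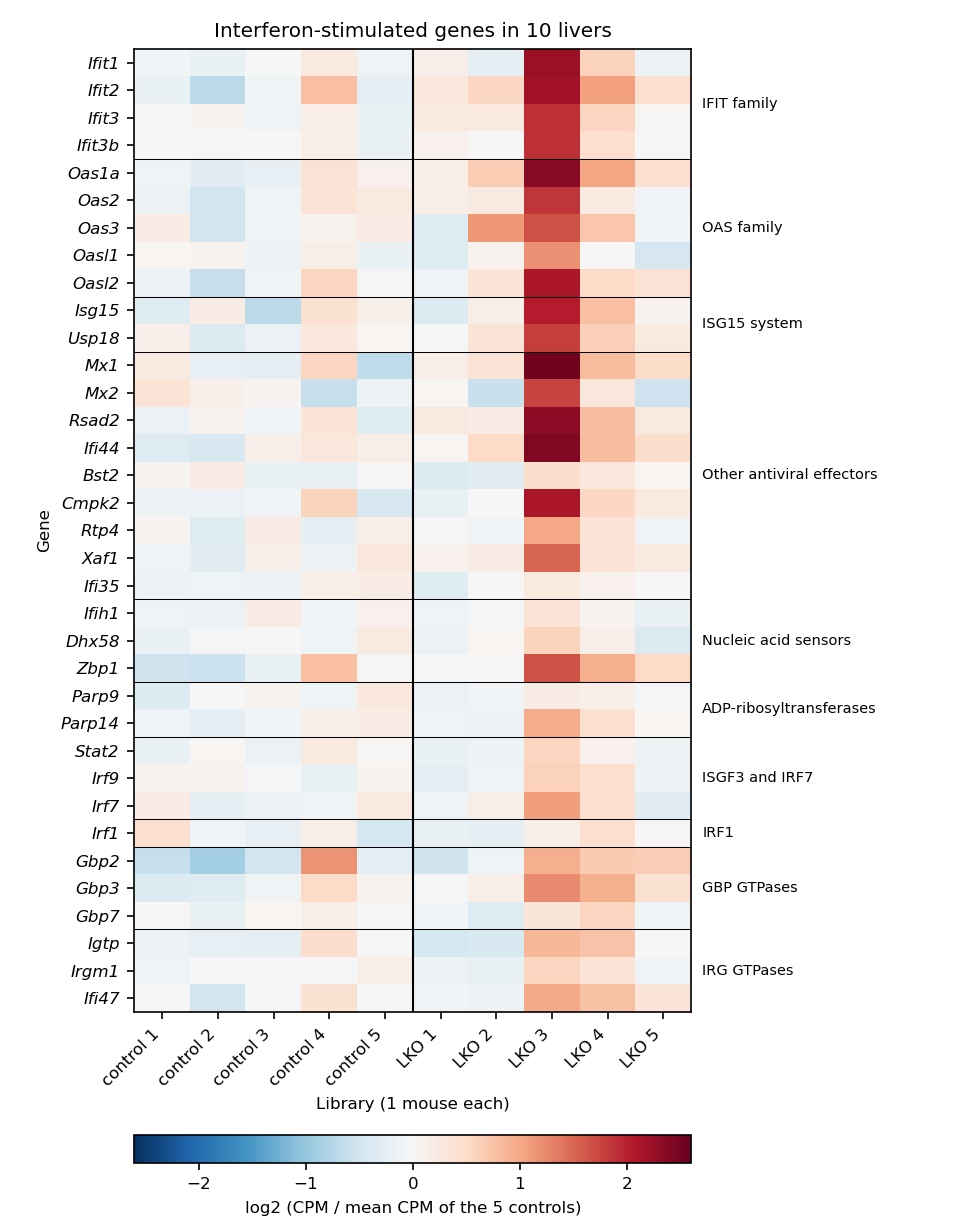
Level of each of the 35 genes (rows, by role) in each library (columns), as the log2 ratio of its CPM to the mean of the 5 controls. Red marks higher and blue lower levels. LKO 3 is the highest library for 31 of the 35 genes, whereas Parp9 is highest in control 5, Gbp2 in control 4 and Irf1 and Gbp7 in LKO 4.

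The IFIT proteins bind foreign RNA and block its translation. Ifit2 (NCBI Gene 15958) stood at 8.57, 5.94, 8.84, 16.6 and 8.12 CPM in controls 1 to 5 and at 11.9, 13.96, 43.7, 20.2 and 12.9 CPM in LKO 1 to 5. All LKO libraries lay above 4 of the controls, and control 4 lay among them. Its log2 fold change was 1.09 (SE 0.39; edgeR adjusted p = 0.154), and it was 1.38 without control 4 (adjusted p = 0.0352) and 0.61 without LKO 3. Ifit3 (NCBI Gene 15959), of the same family, had 16.5, 17.2, 15.2, 18.3 and 14.3 CPM in control. In LKO it had 19.5, 19.4, 60.7, 24.1 and 16.6 CPM. LKO 3 alone was far above the rest, and LKO 5 lay among the controls. The log2 fold change was 0.79 (SE 0.32; edgeR adjusted p = 0.189), and 0.28 without LKO 3. For Ifit1, which recognises RNA with foreign caps, LKO 3 stood at 62.9 CPM and the next library, LKO 4, at 20.1 CPM. Its log2 fold change of 0.86 became 0.11 without LKO 3. Ifit3b followed Ifit3, with 36.5 CPM in LKO 3 and 13.3 CPM in LKO 4. Ifit1 and Ifit3b overlap Ifit1bl1 in the annotation.

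Oligoadenylate synthetases make the messenger that activates RNase L in the presence of double-stranded RNA. Oas1a (NCBI Gene 246730) read 3.66, 3.27, 3.41, 5.16 and 4.26 CPM over the controls and 4.43, 6.23, 20.3, 8.09 and 5.30 CPM over LKO. Only LKO 1 fell inside the control range. With a log2 fold change of 1.17 (SE 0.38), Oas1a had the lowest adjusted p of the 35 members (edgeR adjusted p = 0.139). Oas3 (NCBI Gene 246727) read 3.51, 2.18, 2.87, 3.26 and 3.51 CPM over the controls and 2.42, 6.66, 9.66, 5.04 and 2.93 CPM over LKO. LKO 2 was the second highest here, and LKO 1 and LKO 5 stayed within the controls. Its log2 fold change was 0.80 (SE 0.34; edgeR adjusted p = 0.203). Oasl2 (NCBI Gene 23962), an OAS-like protein, had 9.32, 6.71, 9.55, 15.0 and 10.5 CPM in control. In LKO it had 9.64, 13.0, 44.4, 14.4 and 13.3 CPM. Without LKO 3 no LKO library exceeded control 4, and the log2 fold change of 0.89 (SE 0.39; edgeR adjusted p = 0.214) became 0.30. Oas2 and Oasl1 also had their highest level in LKO 3, at 17.4 and 23.5 CPM, with control 4 next at 6.19 and 11.5 CPM. Without LKO 3 the log2 fold change of Oas2 was 0.13 and that of Oasl1 was -0.15.

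ISG15 is a ubiquitin-like protein attached to other proteins during interferon responses, and USP18 removes it and also damps signalling at IFNAR2. Isg15 (NCBI Gene 100038882) read 1.13, 1.62, 0.877, 1.84 and 1.56 CPM over the controls and 1.10, 1.58, 5.80, 2.42 and 1.49 CPM over LKO. LKO 3 and LKO 4 were the only LKO libraries above all controls. Usp18 (NCBI Gene 24110) read 7.44, 5.30, 6.11, 8.19 and 7.05 CPM over the controls and 6.88, 8.58, 23.8, 10.5 and 8.14 CPM over LKO. LKO 1 and LKO 5 lay inside the control range. The log2 fold changes were 0.82 for Isg15 (SE 0.43; edgeR adjusted p = 0.277) and 0.76 for Usp18 (SE 0.31; edgeR adjusted p = 0.189). Without LKO 3 they were 0.23 and 0.32.

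Among the other antiviral effectors, Ifi44 (NCBI Gene 99899), a gene of the early interferon response, stood at 4.72, 4.53, 6.51, 7.32 and 6.59 CPM in control. In LKO it stood at 6.12, 8.44, 31.3, 10.3 and 8.11 CPM, so that LKO 1 alone fell among the controls. Its log2 fold change was 1.12 (SE 0.41; edgeR adjusted p = 0.159), and 0.47 without LKO 3. Mx1 (NCBI Gene 17857) encodes a dynamin-like GTPase against influenza viruses, and C57BL/6 mice carry a defective allele. It read 2.68, 1.97, 1.92, 3.35 and 1.44 CPM over the controls and 2.58, 2.92, 13.0, 4.02 and 3.16 CPM over LKO. LKO 3 stood 3.24 times above the next library, LKO 4, the largest such ratio of the 35 members. The log2 fold change was 1.18 (SE 0.46; edgeR adjusted p = 0.175), and 0.48 without LKO 3. Rsad2 encodes viperin, which makes a chain-terminating nucleotide, and Cmpk2 is its neighbour and supplies the precursor. LKO 3 had 60.3 CPM of Rsad2 and 21.8 CPM of Cmpk2, and their log2 fold changes of 1.03 and 0.83 became 0.38 and 0.17 without it. Mx2 and Oasl1 turned most clearly below 0 without LKO 3, with log2 fold changes of -0.15 in both.

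The other effectors were Bst2, Rtp4, Xaf1 and Ifi35. Bst2 (NCBI Gene 69550), tetherin, which holds budding virus on the cell, read 50.9, 56.6, 43.1, 42.7 and 49.6 CPM over the controls and 38.2, 40.0, 67.03, 59.9 and 50.3 CPM over LKO. LKO 3 and LKO 4 were the highest of all libraries and LKO 1 and LKO 2 the lowest. Its log2 fold change was 0.07 (SE 0.16; edgeR adjusted p = 0.801). Rtp4, a chaperone of receptors, had 43.5 CPM in LKO 3 and a log2 fold change of 0.32, which became 0.07 without LKO 3. It overlaps Masp1 in the annotation. Xaf1, a regulator of apoptosis, had a log2 fold change of 0.59 and Ifi35 of 0.02.

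Of the 3 sensors of nucleic acid, Zbp1 had the largest log2 fold change. Zbp1 (NCBI Gene 58203), which recognises Z-form nucleic acid and starts necroptosis, read 3.47, 3.41, 4.35, 8.64 and 5.14 CPM over the controls and 4.96, 5.05, 15.7, 9.57 and 7.12 CPM over LKO. Control 4 was above 3 of the LKO libraries. Its log2 fold change was 0.76 (SE 0.36; edgeR adjusted p = 0.233), 1.04 without control 4 and 0.41 without LKO 3. Ifih1 (NCBI Gene 71586), the double-stranded RNA sensor MDA5, read 58.4, 56.8, 73.2, 60.2 and 68.5 CPM over the controls and 59.6, 61.8, 81.4, 66.9 and 55.4 CPM over LKO. Dhx58 (NCBI Gene 80861), the related regulator LGP2, read 8.61, 9.48, 9.75, 9.09 and 11.3 CPM over the controls and 8.64, 9.94, 14.3, 10.6 and 7.41 CPM over LKO. For both genes LKO 3 was the highest library and LKO 5 the lowest. Their log2 fold changes were 0.04 (SE 0.11) and 0.08 (SE 0.16), with edgeR adjusted p-values of 0.872 and 0.794.

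The ADP-ribosyltransferases PARP9 and PARP14 act on interferon signalling in macrophages. Parp14 (NCBI Gene 547253) read 74.6, 66.8, 75.5, 89.0 and 90.8 CPM over the controls and 73.2, 72.4, 154, 106 and 82.0 CPM over LKO. LKO 3 and LKO 4 lay above the controls and the other LKO libraries among them. Parp9 (NCBI Gene 80285), which overlaps Dtx3l in the annotation, read 48.3, 62.2, 65.7, 57.1 and 75.0 CPM over the controls and 55.3, 58.9, 70.1, 67.8 and 60.7 CPM over LKO. Control 5 was its highest library, and no LKO library left the control range. The log2 fold changes were 0.30 (SE 0.20; edgeR adjusted p = 0.388) and 0.02 (SE 0.12; edgeR adjusted p = 0.93).

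The transcription factors that carry the type I signal showed small differences. Irf7 (NCBI Gene 54123), the factor that amplifies interferon alpha production, read 24.0, 17.7, 18.9, 19.7 and 25.3 CPM over the controls and 19.8, 23.3, 45.04, 28.8 and 17.2 CPM over LKO. LKO 3 and LKO 4 were highest and LKO 5 was lowest. Irf9 (NCBI Gene 16391), the DNA-binding part of ISGF3, read 31.3, 31.5, 28.7, 25.9 and 31.3 CPM over the controls and 25.2, 27.6, 44.9, 39.8 and 27.0 CPM over LKO. The 3 other LKO libraries lay below 4 of the controls. Stat2 (NCBI Gene 20847), which overlaps Apof in the annotation, read 57.9, 67.7, 58.8, 77.2 and 66.9 CPM over the controls and 58.0, 60.0, 96.3, 70.7 and 59.9 CPM over LKO. Only LKO 3 exceeded control 4. The log2 fold changes were 0.34, 0.14 and 0.07 (SE 0.23, 0.16 and 0.15; edgeR adjusted p = 0.391, 0.611 and 0.795). Irf1 (NCBI Gene 16362), a factor whose promoter holds the GAS printed above, read 46.5, 33.1, 30.0, 38.8 and 25.2 CPM over the controls and 30.5, 29.5, 38.9, 47.0 and 35.6 CPM over LKO. Its ranges nearly coincided, LKO 4 and control 1 were highest, and the log2 fold change was 0.06 (SE 0.17; edgeR adjusted p = 0.847).

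Guanylate-binding proteins attack the membranes of vacuoles that hold pathogens. Gbp3 (NCBI Gene 55932) read 8.31, 8.61, 10.1, 15.2 and 11.3 CPM over the controls and 10.4, 12.0, 25.01, 20.2 and 13.97 CPM over LKO. LKO 3 and LKO 4 lay above all controls, and control 4 lay above the other LKO libraries. The log2 fold change was 0.61 (SE 0.25; edgeR adjusted p = 0.191). Gbp2 (NCBI Gene 14469) read 6.27, 5.16, 6.78, 21.5 and 8.03 CPM over the controls and 6.63, 8.88, 18.4, 15.3 and 15.0 CPM over LKO. Control 4 was the highest of all 10 libraries, at 2.68 times the next control. With all libraries the log2 fold change was 0.43 (SE 0.40; edgeR adjusted p = 0.548), and without control 4 it was 0.96 (edgeR adjusted p = 0.0426). Gbp7 (NCBI Gene 229900) read 33.0, 28.3, 33.9, 36.3 and 31.3 CPM over the controls and 31.0, 25.7, 40.5, 48.1 and 30.3 CPM over LKO. LKO 4 was its highest library and LKO 2 its lowest, and the log2 fold change was 0.11 (SE 0.16; edgeR adjusted p = 0.701).

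Immunity-related GTPases mark and disrupt such vacuoles, and Irgm1 restrains the others. Ifi47 (NCBI Gene 15953) read 5.59, 3.97, 5.43, 7.32 and 5.58 CPM over the controls and 5.34, 5.08, 10.99, 9.39 and 7.06 CPM over LKO. Igtp (NCBI Gene 16145) read 14.3, 13.8, 13.6, 22.0 and 16.1 CPM over the controls and 11.7, 12.2, 29.1, 26.8 and 15.9 CPM over LKO. Irgm1 (NCBI Gene 15944) read 28.4, 30.8, 30.0, 30.1 and 34.1 CPM over the controls and 27.6, 26.9, 45.2, 39.1 and 28.9 CPM over LKO. In all 3 genes LKO 3 and LKO 4 were the highest libraries and lay close to each other, and the other LKO libraries stayed below the highest control. The log2 fold changes were 0.44, 0.26 and 0.13 (SE 0.23, 0.27 and 0.14; edgeR adjusted p = 0.278, 0.581 and 0.615).

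LKO 3, LKO 4 and control 4 had the highest mean levels, in that order, for both type I targets and interferon gamma GTPases, but LKO 3 stood further above the other libraries for type I targets. The median log2 fold change was 0.69 over the 28 type I targets and 0.34 over the 6 GTPases, a difference of 0.35. In LKO 3 the mean log2 level, relative to the mean of the controls, was 1.499 for type I targets and 0.86 for the GTPases. In LKO 4 the values were 0.51 and 0.72, in LKO 5 0.07 and 0.25, and in control 4 0.20 and 0.49, so that the GTPase value was the higher one in these 3 libraries. LKO 1 stood at -0.02 and -0.17 and LKO 2 at 0.15 and -0.11. The type I value minus the GTPase value was 0.64 in LKO 3, from -0.21 to 0.26 in the other LKO libraries and from -0.29 to 0.15 in control. LKO 3 was at least 2 times above the next highest library in 16 of 28 type I targets and in 0 of 6 GTPases, against 2.3% of all genes. Above all controls stood 5 of 6 GTPases in LKO 3 and 5 of 6 in LKO 4. Over the same libraries the counts were 27 and 18 of 28 type I targets. With 6 GTPases from related families, these counts are descriptions.

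**Figure D2:**
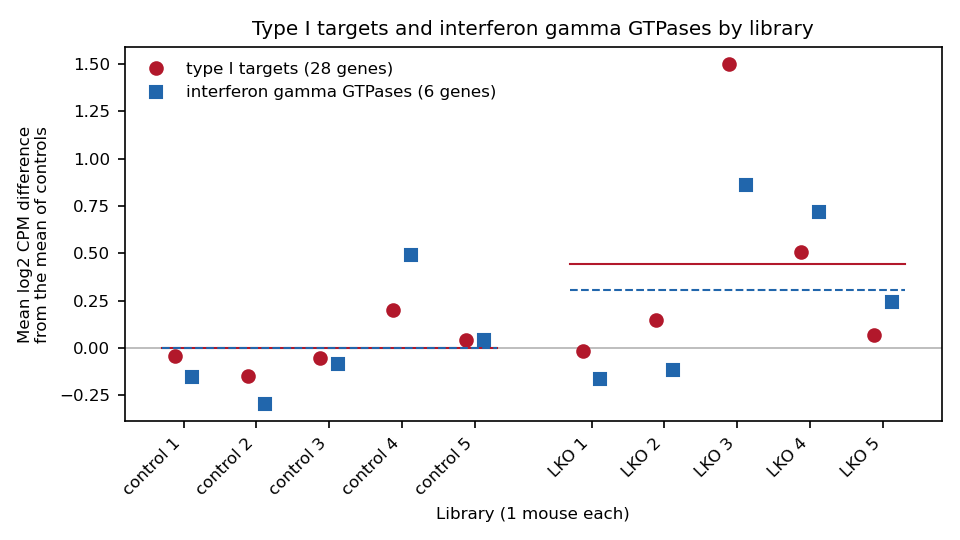
Mean log2 CPM of the 28 type I targets (red circles) and the 6 interferon gamma GTPases (blue squares) in each library, relative to the mean of the 5 controls; solid and dashed lines are the group means. LKO 3 stands at 1.499 for type I targets and 0.86 for GTPases, while in control 4, LKO 4 and LKO 5 the square lies above the circle.

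The difference between groups rested on single libraries. Without LKO 3, 26 of 35 members stayed above 0 and the median log2 fold change was 0.13, against 0.48 with all libraries. The median was then 0.14 for type I targets and 0.15 for interferon gamma GTPases, and the difference between both classes was -0.02. At an unadjusted p under 0.05, 5 members were higher without LKO 3, while 8.84% of all genes were. At an adjusted p under 0.05, 0 members passed, against 0.0719% of all genes. Leaving out LKO 3 gave the lowest log2 fold change of 32 of the 35 members, Irf1 and Gbp7 being lowest without LKO 4 and Parp9 without control 1. Without control 4 the median was 0.56, and Ifit2 and Gbp2 passed at an adjusted p under 0.05. That is 2 of 35 members as higher, where 10.2% of all genes passed as higher. Leaving out control 4 and LKO 3 together gave a median of 0.19 with 25 members above 0. Ifit2, Oas1a and Rsad2 then passed, where 9.87% of all genes passed as higher. With limma voom and quality weights, which gave LKO 3 a weight of 0.283 and control 4 a weight of 0.367, the median was 0.23, 25 members were above 0 and Ifit2 passed (adjusted p = 0.0321), where 10% of all genes passed as higher. DESeq2 called Oas1a alone (adjusted p = 0.0386), where 4.16% of all genes passed as higher.

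**Figure D3:**
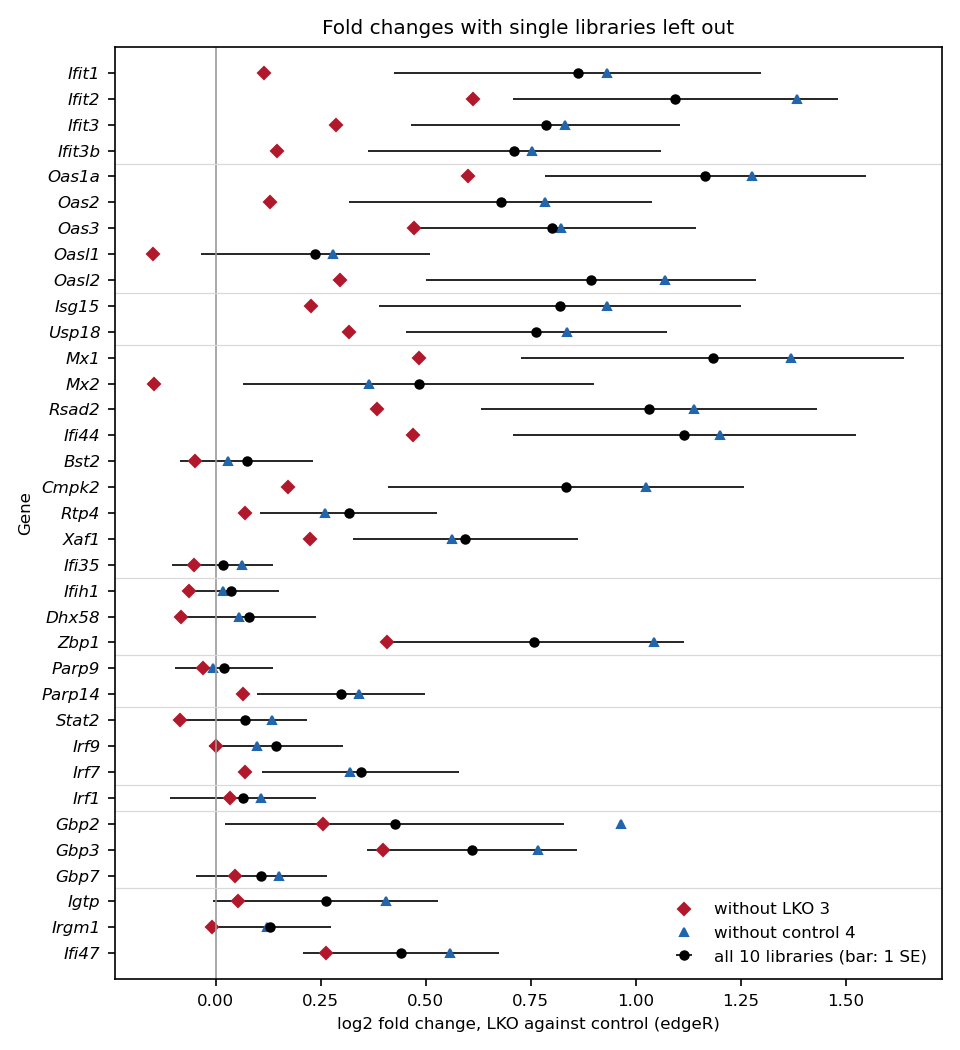
Log2 fold change (edgeR) of each gene with all 10 libraries (black, with 1 SE), without LKO 3 (red diamonds) and without control 4 (blue triangles). Red diamonds lie left of the black points for all 35 genes, and the triangle of Gbp2 lies far to the right, at 0.96 against 0.43.

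The codes in the sample titles, of unstated meaning, ran with the high libraries only in part. Code A54 covers control 1, LKO 1 and LKO 2, A55 the other controls, and A67 LKO 3, LKO 4 and LKO 5. Relative to the mean of the controls, the mean log2 level of the 35 members was 1.35 in LKO 3, 0.54 in LKO 4 and 0.10 in LKO 5. It was 0.25 in control 4, of code A55. Within A54 the median log2 difference of the 35 members was 0.05, with 21 above 0. It was 0.05 for type I targets and -0.08 for interferon gamma GTPases. With the code as a covariate the genotype term in edgeR rested on A54 alone, so that fit is no separate result. Its median was 0.05, with 23 of 35 members above 0. A67 holds no control and A55 no LKO library, so for these mice genotype and code cannot be told apart. Scaling mattered less to the direction. With total counts in place of scaling factors the median of all genes moved to 0.24 and that of the members to 0.83, and all 35 stayed above 0.

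The interferons themselves were near the limit of detection. Of 21 ligand genes, all in the count table, 1 passed the low-count filter, the keratinocyte interferon Ifnk, with a log2 fold change of -0.11 (edgeR adjusted p = 0.835). Ifng had 17 counts in all 10 libraries together. Ifnb1 had 4 counts, all in LKO 3 (0.107 CPM, where 3 counts are worth 0.0802 CPM), a gene chosen after its values were seen. Ifnz also read 0.107 CPM in LKO 3, with counts in controls 1, 2 and 5 and in LKO 1 as well. Of the Ifna genes only Ifna11 had counts in LKO 3 (0.0535 CPM). Of the receptors and kinases, 9 of 9 were above 0, 0 passed, and the median log2 fold change was 0.15. Ifngr1 and Ifngr2, the receptor chains for interferon gamma, stood at 0.53 and 0.48, and Il10rb, a chain of the interferon lambda and interleukin 10 receptors, at 0.75. Ifnar1 and Ifnar2, the chains of the type I receptor, stood at 0.08 each. Of 13 upstream sensors and adaptors tested, 9 were above 0 and 0 passed. Among them were Tlr7, a receptor for single-stranded RNA, at 0.80, the DNA-sensing adaptor Sting1 at 0.87 and Mavs, the adaptor of RNA sensing in mitochondria, at -0.28. Of 8 genes tested from the list of feedback inhibitors, which also holds enzymes of nucleic acids and nucleotides, 6 were above 0. None passed, the lowest edgeR adjusted p being 0.286. Trex1, a DNA exonuclease, stood at 0.19, the exonuclease Isg20 at 0.36 and Samhd1, which breaks down nucleotides, at 0.22.

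Other interferon targets, from lists that do not overlap the members, ran in the same libraries. Of 32 other type I targets, 26 were above 0, with a median of 0.41 and 0 called. Their mean log2 level was 1.12 in LKO 3, 0.40 in LKO 4 and 0.21 in control 4. Ifi27l2a (1.32), Ifi204 (0.85), a sensor of DNA, and Tor3a (0.68) had the smallest p, with edgeR adjusted p-values of 0.106, 0.112 and 0.12. Of 15 other interferon gamma GTPases, 13 were above 0, with a median of 0.43 and 0 called. Their mean was 0.78 in LKO 3, 0.74 in LKO 4 and 0.51 in control 4. F830016B08Rik went the other way, at -0.43 (edgeR adjusted p = 0.106), and Gbp8 stood at 0.60. Gbp11 stood at 0.76 with its highest level, 29.5 CPM, in LKO 2. MHC class I genes, which interferons also induce, had a median of 0.03 over 14 genes, 9 above 0, and stood at 0.06 in LKO 3 and 0.29 in LKO 4. MHC class II genes had a median of 0.90 over 7 genes, all above 0, with 0 called. They stood at 1.73 in LKO 3 and at 1.62 in control 4. Of the chemokines induced by interferon gamma, Cxcl10 had a log2 fold change of 0.79, Cxcl9 of 0.10 and Cxcl11 of -0.33, and 0 passed. Cxcl9 was highest in control 4, at 57.7 CPM, against 33.9 CPM in LKO 3 and 31.1 CPM in LKO 4.

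**Figure D4:**
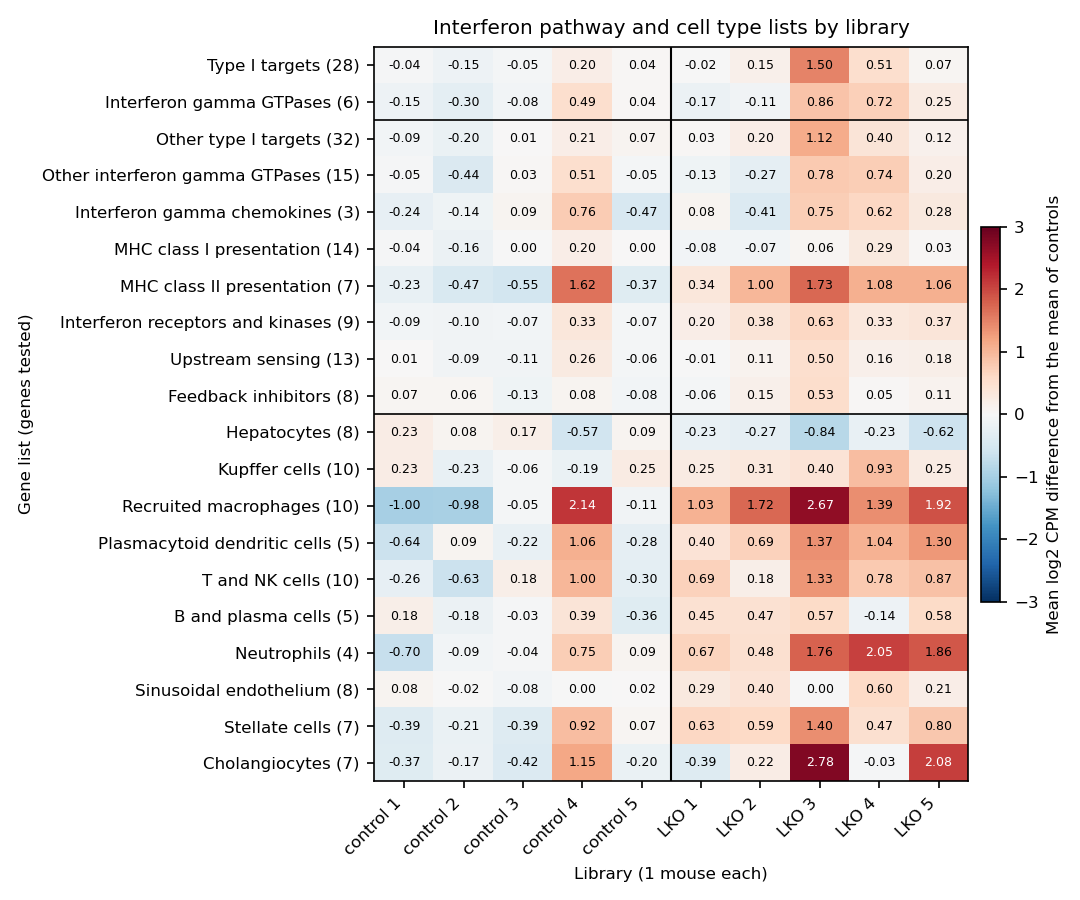
Mean log2 CPM of each list (rows, number of tested genes in brackets) in each library, relative to the mean of the 5 controls. Type I lists are highest in LKO 3, GTPase lists reach similar values in LKO 3 and LKO 4, and markers of recruited macrophages are high in control 4 as well as in LKO.

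Markers of several cell types in the liver were high in LKO 3 and control 4, but in no list were LKO 3, LKO 4 and control 4 together the most extreme libraries. For recruited macrophages LKO 5, at 1.92, lay above LKO 4, at 1.39. The part of these cells in the result was not tested. Hepatocyte markers, albumin among them, were detected in every library. All 8 were below 0, the list stood at -0.84 in LKO 3 and -0.57 in control 4, and its summed level was 59571 to 95116 CPM in control and 49539 to 72395 CPM in LKO. Markers of recruited macrophages were above 0 for 10 of 10, and their sum was 87.1 to 514 CPM in control and 228 to 851 CPM in LKO. Their list mean was 2.67 in LKO 3 and 2.14 in control 4, but 1.39 in LKO 4, where interferon targets were second highest. For Kupffer cells 8 of 10 were above 0, LKO 4 had the highest list mean, 0.93, and the sum was 267 to 363 CPM in control and 343 to 550 CPM in LKO. T and NK cell markers, 9 of 10 tested above 0, summed to 3.69 to 9.16 CPM in control and 4.83 to 11.8 CPM in LKO, and Klrb1c was at 0 in 1 library. Their list mean was 1.33 in LKO 3, 1.0 in control 4, 0.87 in LKO 5, 0.78 in LKO 4, 0.69 in LKO 1 and 0.18 in LKO 2. B and plasma cell markers, 4 of 5 tested above 0, stood at 0.57 in LKO 3, 0.39 in control 4 and -0.14 in LKO 4. Markers of plasmacytoid dendritic cells, a major source of type I interferon, include the member Bst2. All 5 tested were above 0, with sums of 82.7 to 134.5 CPM in control and 93.4 to 215 CPM in LKO. Ly6d had much of this difference, at 0.604 to 46.1 CPM in control and 15.5 to 95.2 CPM in LKO. Its log2 fold change was 2.50, against 0.07 (Bst2) to 0.38 (Siglech) for the other markers tested. Siglech stood at 1.77 CPM in control 4 and 1.18 CPM in LKO 3. Neutrophil markers, 4 of 4 tested above 0, summed to 3.48 to 8.38 CPM and 6.78 to 11.9 CPM, with Ly6g at 0 in 8 libraries. Cholangiocyte markers, 6 of 7 above 0, stood at 2.78 in LKO 3 and 2.08 in LKO 5 but at -0.03 in LKO 4, and their sum was 36.6 to 174 CPM in control and 40.7 to 383 CPM in LKO. Endothelial markers, 8 of 8 above 0, were at -0.00 in LKO 3 and 0.60 in LKO 4, and stellate cell markers, 7 of 7, were at 1.40 and 0.47.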

How the data were processed

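The labels' protocols describe TRIzol extraction of frozen liver, removal of ribosomal RNA, and stranded Kapa libraries read from 1 end for 101 cycles in 1 NovaSeq lane. The authors deposited raw counts, 1 whole number for each gene in each mouse. GRCm39, bcl2fastq 2.20 and DESeq2 appear in the submitters' processing notes. The aligner, the counting tool and its strand setting were not given in the sources used here. All 10 columns matched a sample title, and 0 were unused. Symbols came from RefSeq (GRCm38.p6), which named 25275 of 27179 genes, and promoter coordinates are of that build.

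In R 4.3.3, edgeR 4.0.16 (filterByExpr, TMM scaling, quasi-likelihood F test with the legacy option, genotype as the only term, two-sided) was fitted over 15226 genes, with Benjamini-Hochberg adjustment over all of them and a threshold of 0.05. CPM values are TMM-scaled, and list means use log2 CPM with a prior count of 2. Where a gene had 0 counts, the limit taken was 3 counts, worth 0.0698 (control 5) to 0.113 CPM (control 1), for counting error only. Libraries are separate mice, and p-values measure the spread between them. Replicates differed by more than sampling noise in every pair (lowest chi-square per degree of freedom 32.1). The edgeR and DESeq2 fits were tested on simulated data first. Of 100 genes changed 2-fold, edgeR recovered 70 and DESeq2 79, and of 100 changed 4-fold they recovered 97 and 99. False calls were 12 with edgeR and 42 with DESeq2. Alternatives used DESeq2 1.42.0, limma 3.58.1, other scalings and filters, the replicate number, the title code and left-out libraries.

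The members, lists, tests and alternatives were chosen with earlier results of these data known. Values in every library are given, per role, for the 2 members with the smallest p and the one with the highest mean CPM, and other members are named more briefly. From each other list up to 3 genes with the smallest p were to be named, and further genes were chosen for their role after their values were seen. A further signalling gene is not reported here.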

Additional observations from a re-analysis of the deposited data

Results flagged for a closer look

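In 7 members 1 of the 5 LKO libraries, LKO 3, lay so far above the other LKO libraries that the gap took up most of the range. On the log2 CPM scale LKO 3 stood at 5.92 for Ifit3 (next library 4.59), 5.19 for Ifit3b (3.74), 4.12 for Oas2 (2.52) and 5.48 for Oasl2 (3.85). It stood at 3.71 for Mx1 (2.03), 5.92 for Rsad2 (4.40) and 3.87 for Xaf1 (2.74). All 7 are type I targets, as are 28 of the 35 members. Chance gives such a gap in about 1 of 20 groups, and 76 groups were examined, which are not independent since the genes share libraries. The share of all genes with such a gap was not counted. LKO 3 was the highest library for 24.1% of all genes and the lowest for 24.4%. No control library and none of the 6 interferon gamma GTPases met the same criterion.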

How the results depend on the processing

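The 35 members stayed above 0 and uncalled with other scaling factors, filters and edgeR settings. Over all genes, 31 were called with no filter beyond 1 count and 20 with at least 1 CPM in 5 libraries. DESeq2 called 1186, limma voom 2460, and the fit without control 4 and LKO 3 called 2363. Members called were 1 with DESeq2, 1 with voom and 3 without both libraries. The replicate numbers did not pair the samples: deviations from the group means correlated at 0.42, 0.21, -0.23, -0.40 and -0.02 for numbers 1 to 5, and with a replicate block 2 genes and 0 members were called. Leaving out 1 library at a time gave 2 to 2296 genes called, 0 to 2 members called, a type I median of 0.14 to 0.82 and a class difference of -0.018 to 0.51. Without control 4 and LKO 3 the type I median was 0.19 and the class difference -0.098, and with voom that difference was 0.059. With the title code the genotype term rested on A54 alone. The medians were then 0.050 for members, 0.056 for type I targets and -0.079 for interferon gamma GTPases. Within A54 they were 0.046, 0.053 and -0.079. Some uncalled members turned below 0. With voom these were the 10 members Mx2 (-0.22), Bst2 (-0.091), Dhx58 (-0.060), Ifih1 (-0.055), Irf9 (-0.038), Oasl1 (-0.032), Parp9 (-0.022), Irgm1 (-0.020), Stat2 (-0.011) and Gbp7 (-0.011). Without control 4 and LKO 3 they were the 10 members Mx2 (-0.26), Oasl1 (-0.11), Dhx58 (-0.10), Bst2 (-0.091), Ifih1 (-0.081), Parp9 (-0.057), Irf9 (-0.043), Stat2 (-0.021), Irgm1 (-0.015) and Ifi35 (-0.0052). With the title code they were the 12 members Irf1 (-0.63), Mx2 (-0.59), Bst2 (-0.38), Igtp (-0.26), Irf9 (-0.25), Gbp7 (-0.22), Irf7 (-0.16), Oasl1 (-0.15), Ifi47 (-0.10), Rtp4 (-0.088), Irgm1 (-0.057) and Parp14 (-0.035). Within A54 they were the 14 members Irf1 (-0.63), Mx2 (-0.61), Bst2 (-0.38), Igtp (-0.26), Irf9 (-0.25), Gbp7 (-0.22), Oasl1 (-0.16), Irf7 (-0.16), Ifi47 (-0.10), Rtp4 (-0.089), Irgm1 (-0.057), Parp14 (-0.035), Ifi35 (-0.007) and Ifit1 (-0.001). Leaving out 1 library gave ranges of -0.15 to 0.37 for Oasl1, -0.15 to 0.66 for Mx2, -0.086 to 0.13 for Stat2, -0.082 to 0.17 for Dhx58, -0.063 to 0.091 for Ifih1, -0.057 to 0.099 for Parp9, -0.053 to 0.086 for Ifi35, -0.051 to 0.19 for Irf1, -0.049 to 0.16 for Bst2, -0.037 to 0.20 for Gbp7 and -0.0081 to 0.20 for Irgm1. The cause was not tested. Most of the interferon ligands had too few counts to test at this depth.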
